A study of Mus musculus with 12 samples.

Results

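Small heat shock proteins and chaperones were followed in hindlimb muscle of mice that flew on the International Space Station or stayed on the ground. The set was a named list of 10 genes, given by symbol: Hspb1, Hspb2, Hspb6, Hspb7, Hspb8, Cryab, Bag3, Hspa1a, Hspa8 and Hsp90aa1. All 10 were found among the 36008 genes of the expression table, and all 10 were among the 10481 genes tested, which had a TPM above 5 in at least 1 library. TPM (transcript abundance) is corrected for transcript length and scaled within a library, so levels of different genes can be set side by side.

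The gastrocnemius and the quadriceps were taken from the same 6 female mice, which were 30 weeks old when the experiment began and spent 9 weeks in flight or in matching hardware on the ground. Mice M02, M03 and M08 were the ground group and M11, M12 and M20 the flight group, giving 12 libraries in 4 groups of 3 with 1 library per muscle and mouse. Every animal, on the ground and in flight, was a vehicle control of a drug study and received PBS injections every 2 weeks. The muscles were dissected from frozen carcasses after thawing. The strain is BALB/c in the paper and C57BL/6 in the labels, and each source gives all groups 1 strain. No transgene or deletion is described for either group. With 3 animals per group, the p-values set a difference against a spread estimated from few mice and moderated across all tested genes.

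Small heat shock proteins share a conserved alpha-crystallin domain, bind unfolding proteins without using ATP, and hold them until other chaperones act. Striated muscle is rich in them, and several sit at Z-discs, intermediate filaments and actin, where they protect the contractile apparatus. Hsp70 and Hsp90 proteins are the ATP-driven chaperones, and BAG3 couples Hsp70 to HSPB8 in the autophagic removal of damaged filamin and other sarcomeric clients. Under proteotoxic stress the factor HSF1 binds heat shock elements, repeats of a short unit in alternating orientation, and raises the inducible members of the set.

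Since several of these genes are known targets of HSF1, promoter windows were searched for the letters of a heat shock element (RefSeq, GRCm38.p6, 250 bases before to 50 bases after a gene start). A form with 2 units was written as GAANNTTC or TTCNNGAA, each its own reverse complement, so both strands were covered. At least 1 such match was present in 15.1% of all 32851 promoters and in 5 of the 6 members that had a promoter in the table, namely Hspb1, Hspb6, Hspb8, Bag3 and Hspa1a. Hspb7 had a promoter without the letters, and Hspb2, Cryab, Hspa8 and Hsp90aa1 were not in the table. A longer form with 3 units, GAANNTTCNNGAA or its reverse complement TTCNNGAANNTTC, contains the 2-unit form, was present in 0.603% of promoters and in 0 of the 6 members. The matching windows of the members are shown because these genes include both the steadiest and the most variable of the set. Capitals mark the 2-unit match, with up to 6 flanking bases in lower case, and each is read 5′ to 3′ on the strand of its gene.
Hspb1, chr5:135887796-135887815, plus strand, match starting 117 bases before the gene start: acaagaGAAGTTTCcagatg
Hspb1, chr5:135887816-135887835, plus strand, 97 bases before: ggggcaGAACCTTCctggcc
Hspb6, chr7:30553175-30553194, plus strand, 120 bases before: attattGAAGTTTCtaaata
Hspb8, chr5:116422849-116422868, minus strand, 2 bases after: ccaggaGAAGTTTCtaggct
Bag3, chr7:128523619-128523632, plus strand, 42 bases after, at the end of the window: ggaccaGAAGTTTC
Hspa1a, chr17:34972247-34972266, minus strand, 104 bases before: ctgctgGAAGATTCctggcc
Hspb6 has 2 promoters in the table and the match is in 1 of them, whose start lies 1123 bases inside the gene as GENCODE vM21 draws it, and for Bag3 the RefSeq start lies 33 bases before the GENCODE start. Hspb1 held 2 separate matches, and 1.96% of promoters held 2 or more when overlapping matches were also counted. The Hspa1a window had the same letters as that of its near-identical copy Hspa1b at chr17:34959329-34959348. A match describes letters and not a bound site.

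Cryab, alpha B-crystallin, which binds desmin and titin, was the most abundant member in all 4 groups by mean TPM. In flight its range overlapped that of Hspb6 in the gastrocnemius and that of Hspa8 in the quadriceps. The flight quadriceps means were 456.3 TPM for Cryab and 448.3 TPM for Hspa8, and Hspa8 was the higher in M12 and M20. On the ground Cryab averaged 620.4 ± 114.9 TPM (SD, n = 3) in the gastrocnemius and 619 ± 35.7 TPM (SD, n = 3) in the quadriceps. Hspb6, which binds actin regulators, and Hspa8, the constitutive Hsp70 of every cell, came next in both muscles on the ground. The ranges of Hspb6 and Hspa8 overlapped in the gastrocnemius on the ground, while Hspa8 stood above Hspb6 in the quadriceps. Hspb1, Hspb8 and Hspb7 were of one order in the ground gastrocnemius, at means of 111, 109 and 101 TPM with overlapping ranges. Below them were Bag3, Hsp90aa1 and Hspb2. Hspa1a had the lowest mean in every group, at 5.91 ± 1.93 TPM (SD, n = 3) in the ground quadriceps. In the flight gastrocnemius the ranges of Hspa1a and Hspb2 overlapped, and in M20 Hspa1a was the higher (28.07 against 26.92 TPM). Cryab made up 33.9 ± 0.91% (SD, n = 3) of the summed TPM of the 10 genes in the ground gastrocnemius and 26.9 ± 1.93% (SD, n = 3) in flight.

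**Figure D1:**
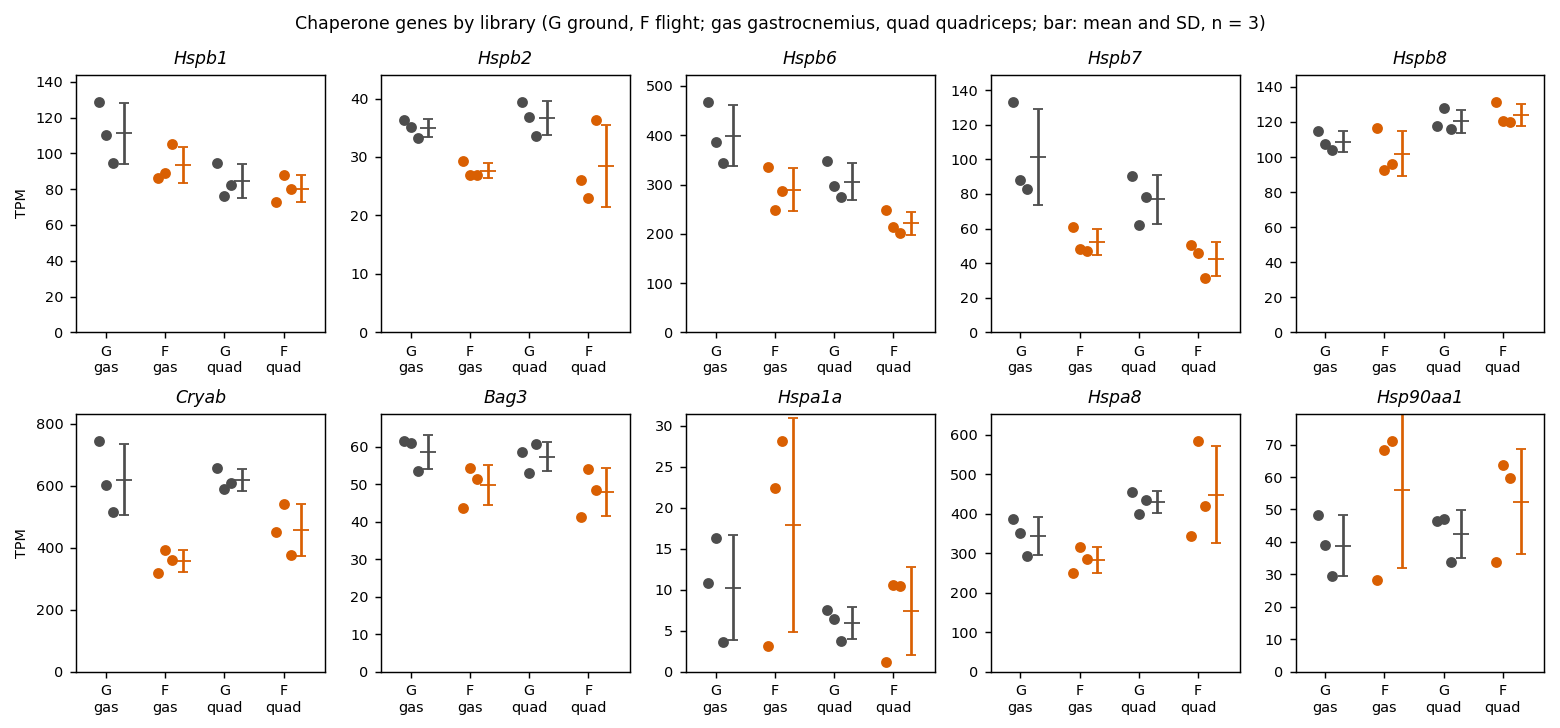
TPM of each of the 10 genes in every library, on linear axes from 0, with ground mice in grey and flight mice in orange, points for single mice and a bar for the mean and SD of 3. In both muscles the flight points of Hspb6, Hspb7 and Cryab lie below all ground points, Hspb8 stays between 92.8 and 131 TPM, and Hspa1a and Hsp90aa1 spread widely among the flight mice.

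In flight the gastrocnemius showed lower levels of 4 of the 6 small heat shock proteins of the set, Hspb7, Cryab, Hspb6 and Hspb2, with no overlap between flight and ground mice. None of the 10 genes passed the call rule (limma, adjusted p under 0.05 and a change of over 1.5-fold), which 0.229% of all tested genes did. Of those 24 genes, 50% were higher in flight, and of the genes called when TPM was rescaled by the median ratio 33.3% were. The number of called genes was 133 without flight mouse M11 and 1 to 8 without any other single mouse. By the looser measure of an unadjusted p under 0.05, 4 of the 10 genes were lower and 0 higher, against 6.55% lower and 8.52% higher of all tested genes. Flight below ground without overlap was seen in the same 4 genes, against 8.55% of all tested genes. The median log2 fold change of the 10 genes was -0.26, and that of all tested genes was 0.02. Fold changes here and below are on the log2(TPM + 1) scale. In whole muscle, fewer cells of a type and less RNA per cell cannot be told apart.

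Hspb7, the cardiovascular heat shock protein that binds filamin C, had the largest difference. Its gastrocnemius level was 133, 87.9 and 82.8 TPM in the ground mice M02, M03 and M08, and 60.9, 48.4 and 47.0 TPM in the flight mice M11, M12 and M20. The lowest ground mouse was thus above the highest flight mouse, and M02 stood above the other ground mice. The log2 fold change was -0.92 ± 0.19 (SE), a level 47.2% lower, with a limma adjusted p of 0.126.

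Cryab was measured at 743, 602 and 516 TPM on the ground and at 319, 392 and 362 TPM in flight. All flight mice were below all ground mice, by 41.8% on the fitted scale (log2 fold change -0.78 ± 0.14 SE, limma adjusted p = 0.103). When the spread was estimated from all 12 libraries in 1 fit, Cryab passed the rule with an adjusted p of 0.0446, the only member of the set to do so in the gastrocnemius. When 1 library was left out, its adjusted p ran from 0.0753 to 0.391.

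Hspb6 stood at 467, 386 and 345 TPM on the ground and at 335, 248 and 287 TPM in flight. The gap between the groups was narrow, since ground mouse M08 and flight mouse M11 differed by little, and the fitted level was 27.3% lower (adjusted p = 0.224). Hspb2, which lies head to head with Cryab and binds the myotonic dystrophy kinase, had tight groups, 36.4, 35.1 and 33.3 TPM on the ground and 29.2, 26.9 and 26.9 TPM in flight. Its log2 fold change was -0.33 ± 0.08 (SE), with an adjusted p of 0.171. Hspb2 and Cryab overlap by 1030 bases on opposite strands of chromosome 9 and share 252 exon bases. They had no 31-base word in common with another gene on the same strand, and the strand option of the quantification is not given in the sources used here.

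Hspb1 and Hspb8 overlapped between the groups. Hspb1, the actin-capping small heat shock protein, had 129, 111 and 94.6 TPM on the ground and 86.4, 88.9 and 105 TPM in flight (log2 fold change -0.24, 95% interval -0.54 to 0.06). Hspb8, the partner of BAG3, had 115, 108 and 104 TPM on the ground and 117, 92.8 and 96.1 TPM in flight, and its interval ran from -0.34 to 0.14. The TPM of Hspb7 was 0.798 to 1.16 times that of Hspb8 in the ground mice and 0.489 to 0.522 times in the flight mice, a ratio given without a test.

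Bag3 and the ATP-driven chaperones overlapped between flight and ground in the gastrocnemius. Bag3 had 61.4, 60.9 and 53.5 TPM on the ground and 43.7, 54.2 and 51.4 TPM in flight, overlapping by a single flight mouse (log2 fold change -0.23, 95% interval -0.48 to 0.01). Hspa8 had 386, 352 and 293 TPM on the ground and 250.4, 315 and 284 TPM in flight (log2 fold change -0.28, interval -0.57 to 0.02). Hsp90aa1, the inducible cytosolic Hsp90, had 48.1, 39.0 and 29.4 TPM on the ground and 28.4, 68.3 and 71.0 TPM in flight. Flight mice M12 and M20 were above every ground mouse and M11 was below every ground mouse, and the interval of the log2 fold change was wide, -0.37 to 1.24. Hspa1a, the inducible Hsp70, had 10.9, 16.3 and 3.59 TPM on the ground and 3.13, 22.4 and 28.1 TPM in flight, with the same 2 flight mice high and the same 1 low (interval -1.27 to 2.32).

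**Figure D2:**
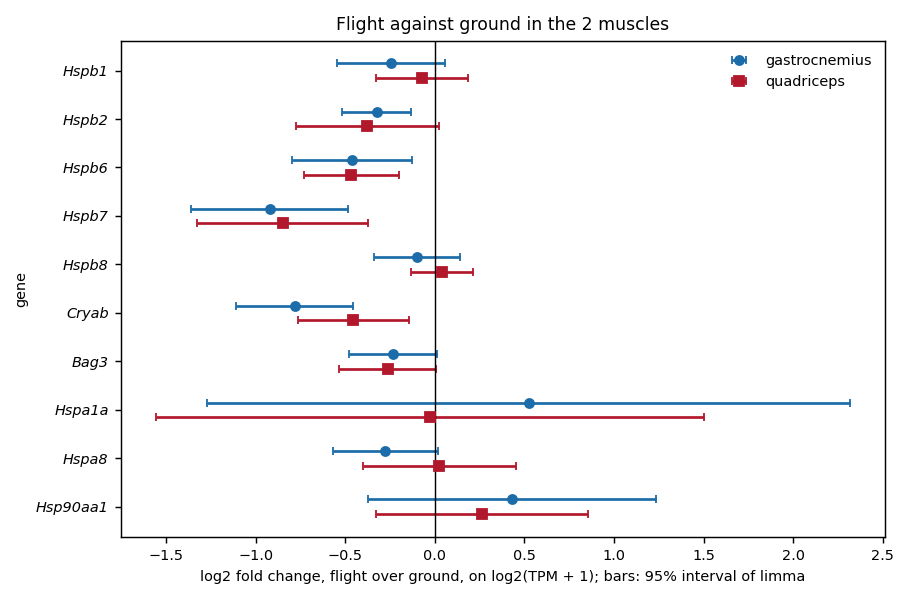
Log2 fold change of flight over ground for each of the 10 genes in the gastrocnemius (circles) and the quadriceps (squares), with the 95% interval of the limma fit. The intervals of Hspb6, Hspb7 and Cryab lie below 0 in both muscles and that of Hspb2 in the gastrocnemius, whereas those of Hspa1a and Hsp90aa1 are the widest in each muscle. The intervals are not adjusted for the number of genes tested.

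In the quadriceps, Hspb7, Hspb6 and Cryab were again lower in flight without overlap, and none of the 10 genes was called. The call rule was met by 0.0286% of all tested genes, 33.3% of them higher in flight, or 0% with rescaled TPM. An unadjusted p under 0.05 was reached by 3 of the 10 genes, all lower, against 5.18% of all tested genes lower and 5.66% higher, and 8.12% of all tested genes were below ground without overlap. The muscles share the 6 mice, so the quadriceps is not an independent set of animals.

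Hspb7 had 90.2, 62.1 and 78.3 TPM in the ground quadriceps and 50.3, 46.0 and 31.5 TPM in flight. Its fitted level was 44.4% lower, with a log2 fold change of -0.85 ± 0.20 (SE) and a limma adjusted p of 0.299. Hspb6 had 347, 297 and 274 TPM on the ground and 248, 214 and 202 TPM in flight, 27.6% lower (adjusted p = 0.307). Cryab had 659, 589.9 and 609 TPM on the ground and 452, 542 and 375 TPM in flight, 27% lower (adjusted p = 0.347). The ground mice were close together for Cryab and the flight mice were spread.

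Hspb2 had 39.4, 36.8 and 33.6 TPM on the ground and 26.0, 22.9 and 36.4 TPM in flight, and flight mouse M20 lay within the ground range (log2 fold change -0.38, 95% interval -0.78 to 0.02). Hspb8 was level, at 118, 128 and 116 TPM on the ground and 131, 121 and 120.0 TPM in flight, with an interval of -0.13 to 0.22. Hspb1 had 94.6, 76.1 and 82.6 TPM on the ground and 73.0, 88.2 and 79.9 TPM in flight, and its interval was -0.33 to 0.19.

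Bag3 had 58.6, 52.9 and 60.6 TPM in the ground quadriceps and 41.2, 53.9 and 48.5 TPM in flight (log2 fold change -0.26, 95% interval -0.53 to 0.01), much as in the gastrocnemius. Hspa8 had 456, 400.3 and 436 TPM on the ground and 343, 583 and 419 TPM in flight, where M11 and M12 were the lowest and highest of the 6 mice. Hsp90aa1 had 46.3, 46.9 and 33.8 TPM on the ground and 33.9, 63.7 and 59.6 TPM in flight. Hspa1a had 7.53, 6.42 and 3.77 TPM on the ground and 1.16, 10.6 and 10.4 TPM in flight. M12 and M20 were thus again the highest for both inducible genes, and M11 was the lowest for Hspa1a.

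The flight effect of the 10 genes was set against itself across the muscles with mouse as a block. None of the 10 was called, as was true of 0% of all 10481 genes tested, of which 261 had a higher and 273 a lower signed log2 effect in the gastrocnemius at an unadjusted p under 0.05. The smallest unadjusted p among the 10 was 0.0658, for Cryab, whose log2 effect was 0.33 lower in the gastrocnemius (95% interval -0.68 to 0.03, adjusted p = 0.957). For Hspb7 the difference in effect was -0.07 with an interval of -0.47 to 0.32, and for Hspb6 it was 0.00 with an interval of -0.24 to 0.25. No member was thus shown to respond differently in the 2 muscles, though a p that misses the threshold does not show that the effects were alike.

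Markers of fiber type moved beside the small heat shock proteins in the gastrocnemius. Of 10 slow fiber markers, such as Myh7 and Tnni1, all 10 had lower values in flight, 6 at an unadjusted p under 0.05 and 3 of them called. Their summed level was 2056 to 2515 TPM on the ground and 1341 to 1587 TPM in flight, and none was at 0 in any group. The summed level of the 6 small heat shock proteins went from 1175 to 1624 TPM on the ground to 896 to 947 TPM in flight. In the quadriceps the slow fiber sum ran from 1088 to 2628 TPM on the ground and from 1530 to 2074 TPM in flight, which overlap, while the small heat shock protein sum was 1190 to 1348 TPM on the ground and 845 to 1033 TPM in flight, which do not. There 7 of the 10 slow fiber markers were lower, 1 at an unadjusted p under 0.05. The part of fiber type in the values of Hspb6, Hspb7 and Cryab was not tested.

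Other cell types were looked at in the same way. In the quadriceps the 6 tested adipocyte markers were all lower in flight at an unadjusted p under 0.05, none called, and the list summed to 324 to 601 TPM on the ground and 206 to 286 TPM in flight. In the gastrocnemius the same list summed to 182 to 263 TPM and 182 to 240.1 TPM. Blood, Schwann cell, endothelium, fibroblast and tendon, and macrophage markers had 0 genes at an unadjusted p under 0.05 in flight in either muscle, or 1 blood marker, lower in the gastrocnemius, with rescaled TPM. In the gastrocnemius all 5 blood markers nevertheless had lower flight values, with a median log2 fold change of -0.42 and sums of 382.5 to 817 TPM on the ground and 351 to 539 TPM in flight. All 5 Schwann cell markers had higher flight values there, with a median of 0.35 and sums of 146 to 220.4 TPM on the ground and 177 to 316 TPM in flight. The 11 fast fiber markers summed to at least 79750 TPM in every library, and all fast and slow markers were above 0 in these libraries labelled as skeletal muscle. In flight 4 of the 11 were higher and 1 lower at an unadjusted p under 0.05 in the gastrocnemius, and 1 was higher and 1 lower in the quadriceps, none called. With rescaled TPM 2 were higher and 1 lower in the gastrocnemius. The part of adipocyte content in the quadriceps values, and of blood and Schwann cells in the gastrocnemius values, was not tested.

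The levels of the same mouse were compared between the muscles. For Hspa1a the order of the mice in the gastrocnemius, from high to low, was M20, M12, M03, M02, M08 and M11, and in the quadriceps it was M12, M20, M02, M03, M08 and M11. Across the 6 mice the log2 levels in the 2 muscles had a Pearson r of 0.908 (exact permutation p = 0.00556, adjusted p = 0.0389 over 7 members) and a Spearman rho of 0.886 (exact permutation p = 0.0333, adjusted p = 0.136). Without the 2 mice farthest from the median, M08 and M11, r was 0.747. For Hsp90aa1 r was 0.973 (exact permutation p = 0.0222, adjusted p = 0.0777) with a rho of 0.829 (exact permutation p = 0.0583, adjusted p = 0.136), and r was 0.924 without M12 and M20. Hspb2 had the same rho as Hsp90aa1, 0.829 (exact permutation p = 0.0583, adjusted p = 0.136), with an r of 0.659. The other 5 members tested, Hspb2 included, had an adjusted p of 0.162 or more by the exact permutation test of r. Hspb6, Hspb7 and Cryab were left out because their ground and flight mice formed separate clusters of 3 in both muscles, too few for a value within each. The 7 tested were thus chosen from these same values, and the adjustment covers only those 7. Ground and flight mice were permuted together, so a flight difference can enter r. For Hspb2 the groups do not overlap in the gastrocnemius. Flight and ground mice are mixed in the order of Hspa1a, with the flight mice at both ends.

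**Figure D3:**
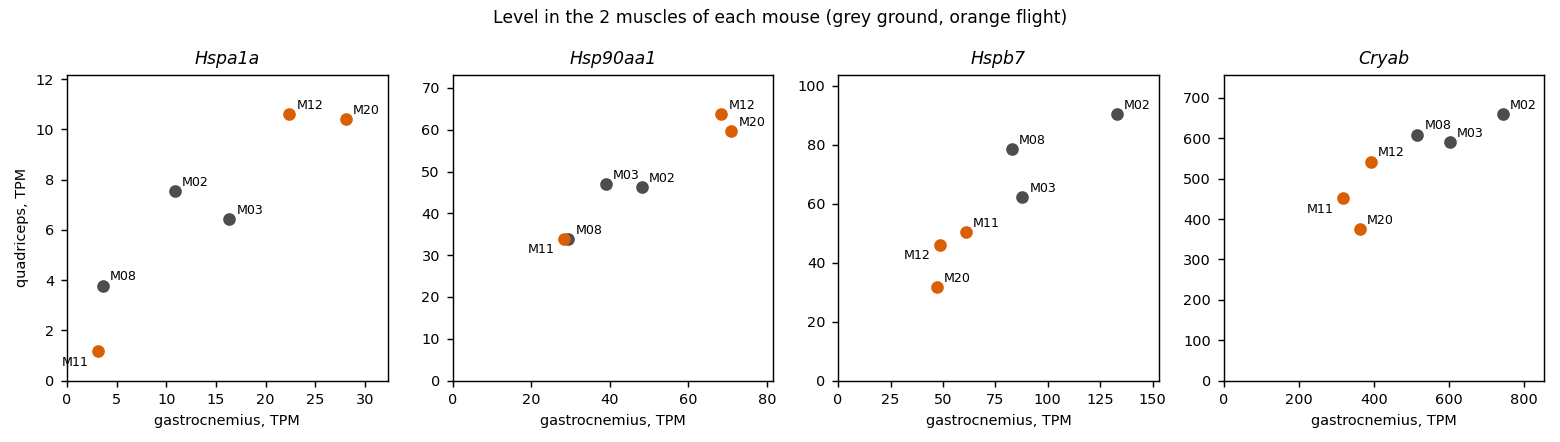
TPM in the gastrocnemius (horizontal axis) and in the quadriceps (vertical axis) of each of the 6 mice, ground in grey and flight in orange, for the inducible genes Hspa1a and Hsp90aa1 and for Hspb7 and Cryab. Flight mice M12 and M20 are high and M11 is low for the inducible genes, while for Hspb7 and Cryab the 3 ground mice lie above and to the right of the 3 flight mice.

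The genes closest in profile to the 3 most variable members were named by the root mean square difference of log2(TPM + 1), each profile centred over the 12 libraries. For Hspa1a (SD 1.1 on the log2 scale) they were Hspa1b at 0.312, Map3k6, Gm18852, Cntfr and the Hsp40 co-chaperone Dnajb1 at 0.523, against a median of 1.1 over all tested genes. For Hspb7 (SD 0.559) they were Myom3, an M-band protein of the sarcomere, at 0.222, then Actn2, Hspb6, Myoz2 and Lmcd1 at 0.289, against a median of 0.602. Actn2 and Myoz2 are Z-disc proteins. The study classes Myom3, Actn2 and Myoz2 as slow-twitch genes, and of these Myoz2 was in the slow fiber list used here. For Hsp90aa1 (SD 0.459) they were Nrip1 at 0.141, Ucp3, Tpst2, Nfkbia and Adamts9 at 0.189, against a median of 0.494. Hspa1b, a second gene for the inducible Hsp70, had 9.09, 12.7 and 1.96 TPM in the ground gastrocnemius and 2.60, 22.7 and 19.3 TPM in flight. Of the 31-base words of Hspa1a transcripts, 63.8% also occur in Hspa1b, so the division of reads between them is uncertain. Shared words also make up 52.3% of Hspb1, 51.4% of Hsp90aa1 and 43.5% of Hspa8, and 0% of Hspb2, Hspb8, Cryab and Bag3.

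Between the muscles, Hspa8 and Hspb8 were lower and Hspb1, Hspb6 and Hspb7 higher in the gastrocnemius in each of the 6 mice. The share of all tested genes with 1 direction in all 6 mice was not computed. Of the 10481 tested genes, 7091 were lower in the gastrocnemius on the ground and 6988 after flight. The ratio of gastrocnemius to quadriceps within a mouse was 0.540 to 0.880 for Hspa8, 0.770 to 0.979 for Hspb8, 1.01 to 1.45 for Hspb1, 1.16 to 1.42 for Hspb6 and 1.05 to 1.49 for Hspb7. With rescaled TPM, Hspb8 was lower in 5 of the 6 mice, at ratios of 0.814 to 1.08, and its log2 difference on the ground went from -0.14 to -0.03, while the other 4 genes kept their direction in all 6 mice. No member was called on the ground, where 2.21% of all tested genes were, or after flight, where 1.66% were. These main fits had no mouse block. At an unadjusted p under 0.05, 1 of the 10 was lower and 2 higher on the ground, against 23.5% and 4.25% of all tested genes, and 3 were lower and 1 higher after flight, against 20% and 4.57%. With rescaled TPM these counts were 0 lower and 2 higher on the ground, against 13.1% and 9.23%, and 1 lower and 2 higher after flight, against 11.7% and 9.61%. The 232 genes called on the ground became 0 without the gastrocnemius of M02, 7 without the quadriceps of M03, 67 and 118 without the gastrocnemius of M03 and M08, and 207 and 220 without the quadriceps of M02 and M08. The 174 called after flight became 280 without the gastrocnemius of M11 and 12 to 32 without any other single library. The gastrocnemius had a general shift, with a median log2 difference of -0.12 on the ground and -0.11 after flight over all tested genes. Of the called genes 26.3% were higher in the gastrocnemius on the ground and 24.7% after flight, and 51.4% and 50.9% when TPM was rescaled by the median ratio.

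Hspa8 had a log2 difference of -0.33 (adjusted p = 0.0991) on the ground and -0.63 (adjusted p = 0.106) after flight, both without overlap, and 28.3% and 24.4% of all tested genes were below without overlap. With rescaled TPM these differences were -0.22 and -0.52. After flight it was called in the fit of all 12 libraries (adjusted p = 0.0306), within a range of 0.0306 to 0.291 over its alternatives. Hspb6 was 0.38 higher on the log2 scale on the ground and 0.38 after flight, with adjusted p of 0.115 and 0.136. With mouse as a block the ground value of Hspb6 had an adjusted p of 0.0402 at a difference below 1.5-fold, and its alternatives ranged from 0.0402 to 0.337. Hspa1a was higher in the gastrocnemius in 5 of 6 mice, at 2.7, 2.11 and 2.7 times the quadriceps level in the flight mice M11, M12 and M20 and 1.44, 2.54 and 0.953 times in the ground mice M02, M03 and M08, or 1.05 times in M08 with rescaled TPM. Its log2 difference after flight was 1.10, with an adjusted p of 0.477 without a block and 0.0355, called, with mouse as a block, and its alternatives ranged from 0.0355 to 0.859. Hspb2 and Cryab were near level on the ground, at -0.06 and -0.01, and turned to 0.05 and 0.10 with rescaled TPM. In these comparisons the gastrocnemius also had higher Schwann cell markers, 5 of 5 at an unadjusted p under 0.05 on the ground, with sums of 146 to 220.4 TPM against 56.0 to 89.2 TPM. Adipocyte markers were lower there, 6 of 6 tested on the ground, and the part of either in the muscle differences was not tested.

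The rest of the chaperone network was examined through 9 lists of 100 further genes, of which 92 were tested. In flight 0 of the 92 were called by limma in either muscle, with TPM as deposited or rescaled. In the gastrocnemius 4 were lower and 3 higher at an unadjusted p under 0.05, with a median log2 fold change of -0.03, and in the quadriceps 4 were lower and 2 higher, with a median of -0.01. With rescaled TPM 10 were lower and 3 higher in the gastrocnemius, against 8.96% and 7.72% of all tested genes, and 7 were lower and 1 higher in the quadriceps, against 6.9% and 4.9%. Of the list of heat shock factors, Hsf1, Hsf2, Hsf4 and Hsbp1 were tested, and 0 of these 4 had an unadjusted p under 0.05 in either muscle. Hsf1, the main stress factor, had group means of 27.1 to 28.6 TPM. The 8 partners of the BAG3 pathway, including Flnc, Synpo2 and Sqstm1, also had 0, or 1 lower in the gastrocnemius with rescaled TPM. In the list named other small heat shock proteins, Hspb3, the partner of HSPB2, and Hspb11 were tested, and Cryaa, the lens crystallin, was at 0 in all libraries. In the gastrocnemius both tested genes were higher in flight, at log2 fold changes of 0.118 and 0.163. Of these 1 was above ground without overlap, as were 1305 of all 10481 tested genes. In the quadriceps 1 was lower and 1 higher, at -0.11 and 0.05. Neither had an unadjusted limma p under 0.05 in either muscle.

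Hspd1, Hspe1 and Dnajc7 were the genes of these lists with an unadjusted p under 0.05 in both muscles. Hspd1 and Hspe1, which encode the 2 parts of the mitochondrial chaperonin, had log2 fold changes of -0.23 and -0.31 in gastrocnemius and -0.23 and -0.30 in quadriceps, with limma adjusted p from 0.245 to 0.408. They share 1 bidirectional promoter window, in which 4 alternating units run together. It is shown, on the strand of Hspe1, as the contrast to the single 2-unit matches of the members.
Hspe1, chr1:55088053-55088082, plus strand, match starting 89 bases before the gene start: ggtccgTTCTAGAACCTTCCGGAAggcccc
The co-chaperone Dnajc7, a J-domain protein that links Hsp70 and Hsp90, was higher in both, at 0.31 (adjusted p = 0.139) and 0.21 (adjusted p = 0.427). Hspa1l, which lies 546 bases from Hspa1a in the opposite direction, was lower in the gastrocnemius, at -0.59 (adjusted p = 0.107). Ptges3, the Hsp90 co-chaperone p23, was lower there at -0.30, and Dnajc8 and the prefoldin subunit Pfdn2 higher at 0.28 and 0.30. In the quadriceps Cct2, a subunit of the cytosolic chaperonin, and Hspa5, the Hsp70 of the endoplasmic reticulum, were lower at -0.17 and -0.21, and Cdc37l1 was higher at 0.20.

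**Figure D4:**
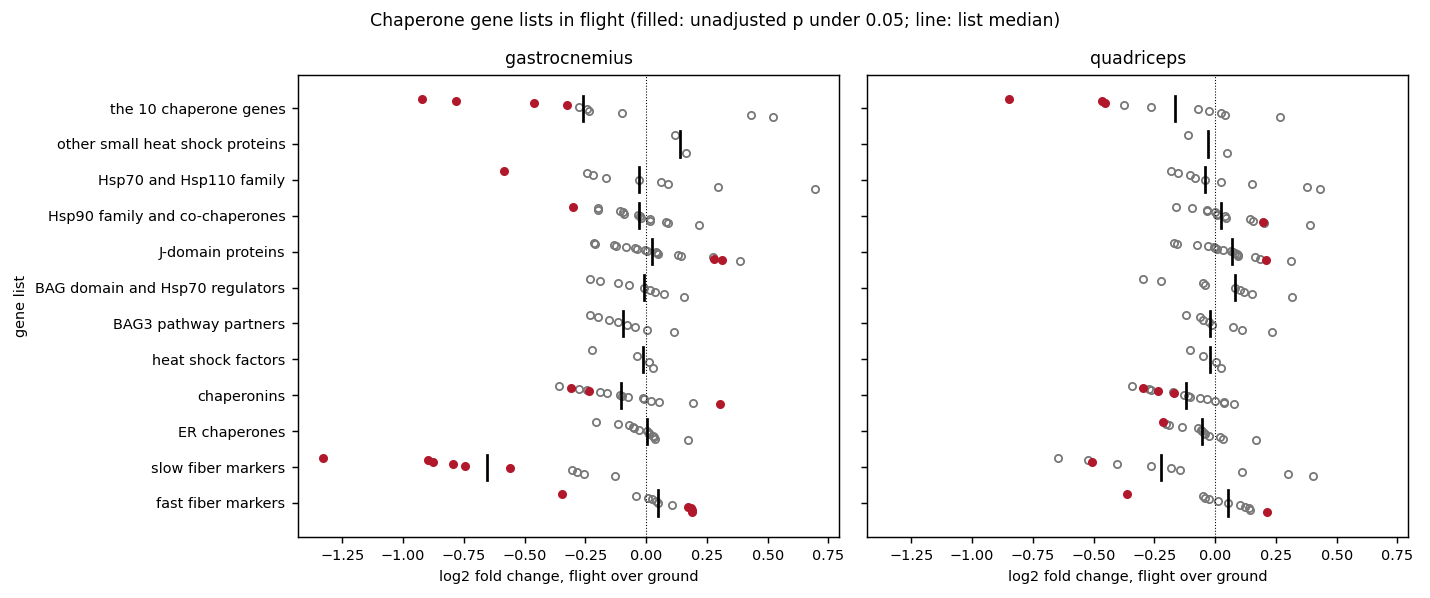
Log2 fold change of flight over ground for every tested gene of 12 lists in the gastrocnemius (left) and the quadriceps (right), filled where the unadjusted limma p was under 0.05, with a line at the list median. The 10 chaperone genes have medians of -0.26 and -0.17, the other chaperone lists lie closer to 0, and the slow fiber markers have medians of -0.65 and -0.22.

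Between the muscles some genes of the wider network were called. On the ground 5 of the 92 genes were called, all lower in the gastrocnemius, against 2.21% of all tested genes called. St13, the Hsp70-interacting protein Hip, differed by -0.77 (adjusted p = 0.00927), and the prefoldin subunits Pfdn2, Pfdn1 and Pfdn6 differed by -0.75, -0.63 and -0.64. Hspb3 differed by -0.63 (adjusted p = 0.0182). The 16 chaperonin and prefoldin genes were all lower in the gastrocnemius, 15 at an unadjusted p under 0.05, with a median of -0.42 against the general shift of -0.12. Of all tested genes 23.5% were lower at that p, or 13.1% with rescaled TPM. With rescaled TPM all 16 were still lower, 14 at an unadjusted p under 0.05, with a median of -0.31. The 13 tested chaperones of the endoplasmic reticulum were also all lower, 10 at an unadjusted p under 0.05, with a median of -0.34, or 7 and -0.23 with rescaled TPM, where all 13 were again lower. Of the 5 called genes, 2 (St13 and Pfdn2) were called with rescaled TPM, and 0 were without the gastrocnemius of M02. After flight St13 was again called, at -0.74 (limma adjusted p = 0.0402), the only one of the 92, against 1.66% of all tested genes. At an unadjusted p under 0.05, 47 of the 92 were lower and 2 higher, against 20% and 4.57% of all tested genes. With rescaled TPM 0 were called. At that p 28 were then lower and 3 higher, against 11.7% and 9.61% of all tested genes. By contrast the median of the 10 chaperone genes was 0.01 on the ground and 0.05 after flight.

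No event of the 10 genes was listed in the tables of skipped exons (SE) and mutually exclusive exons (MXE). These tables hold 2423 gastrocnemius and 2416 quadriceps events. Of the events kept for testing 0.378% and 0% were called, by an adjusted p under 0.05 and a change in percent spliced in (PSI) of over 5%. The absence of an event says only that none is listed for these genes. In the annotation Hspa1a has 1 exon and Hspb2 2 exons, which leaves no internal exon to skip, and the other members have coding transcripts with 3 or more exons. Among the other chaperones 17 events in 13 genes were listed per muscle and 13 were kept in each.

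None of the kept chaperone events was called. In the gastrocnemius 2 exons of Bag6, a chaperone for membrane proteins, had an unadjusted p under 0.05, as did 9.49% of all kept events. The exon at chr17:35139023-35139076 had PSI of 88.2, 95.2 and 94.4% on the ground and 63.2, 84.0 and 82.6% in flight, a mean change of -16.1 PSI points (limma adjusted p = 0.423). The exon at chr17:35142498-35142605 had PSI of 24.2, 7.46 and 13.9% on the ground and 37.9, 32.2 and 28.3% in flight, a change of 17.6 PSI points (limma adjusted p = 0.466). These values rest on 21 to 41 and 34 to 41 junction reads per sample. The same 2 exons changed by -7.3 and 3.18 PSI points in the quadriceps, with unadjusted limma p of 0.216 and 0.56. In the quadriceps, where the share was 7.76%, 1 MXE event of Cct4 had PSI of 67.4, 62.3 and 79.2% on the ground and 43.1, 41.3 and 45.2% in flight for its first exon (chr11:22994298-22994387), a change of -26.4 PSI points with a limma adjusted p of 0.637, and 24 to 53 junction reads lay behind each value. Its change in the gastrocnemius was -17.5 PSI points, with an unadjusted limma p of 0.0742. The 3 events were picked by that p. In the muscle where each was picked, their ground and flight samples did not overlap. This held for 16.2% of all kept events in the gastrocnemius and 12.5% in the quadriceps.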

How the data were processed

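RNA-seq libraries (poly-A selected, stranded, single-end) of 2 muscles from 6 mice were quantified by the authors with kallisto 0.46.0 and summed per gene with tximport, and the deposited table holds TPM. TPM carries no counting depth, so precision rests on the spread between mice. The library with the fewest genes above 0, 18172 against 20291 to 21265 in the others, was the ground quadriceps of M08. For splicing the authors aligned reads to mm10 with STAR 2.7.1a and used rMATS-turbo. The deposited tables give junction read counts and PSI per sample as lists in which the 3 samples of a group are not named, an IncLevelDifference score, and p-values and FDR. The score, p-values and FDR are the authors' own comparison and were not used. The first list was taken as ground and the second as flight from the order in the file names. Tool versions are from the submitters' processing notes, which also name DESeq2 1.26.0. That tool needs counts, so it was left aside here. The annotation and strand setting of kallisto are not given in the sources used here.

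The genes tested had at least 1 library with a TPM above 5. They were fitted with limma 3.58.1 (lmFit, eBayes with trend) in R 4.3.3 on log2(TPM + 1), with two-sided p-values and Benjamini-Hochberg adjustment over all 10481 genes. The call rule asked for an adjusted p under 0.05 together with over 1.5-fold. For splicing, limma was run on log2 inclusion over skipping reads, 0.5 being added to each before division by effective length, for events with a mean of over 10 reads in both groups and PSI not extreme (5% or less, or 95% or more) in all 6 samples. Mouse was a block in the main fit of the difference of the flight effect. The main fits between the muscles had no block, and mouse as a block was an alternative there. Deviations from the group means correlated at -0.119 to 0.333 between the muscles of a mouse, and the pairing of muscles comes from the shared animals. Exons and genes were placed on GRCm38 with GENCODE vM21. In simulated data a log2 change of 1 in 200 of the 10481 genes was recovered for 79.5% of genes in the gastrocnemius comparison of flight and 70.5% in that of the quadriceps. The simulation drew independent normal noise from the estimated spread of each gene. The fitted flight changes of the 10 genes were all smaller than 1, so these shares are not the power for them.

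The 10 genes and all lists were chosen with earlier results of these data known. Named genes were the 10, the other chaperone genes called in a comparison and of the rest up to 12 with the smallest unadjusted p under 0.05, of which the text gives those in flight and the called ones between muscles, the 5 closest profiles of the 3 most variable members, and chaperone events with an unadjusted p under 0.05. Alternatives covered the pseudocount, the filter, rescaling by the median ratio, the trend, all 12 libraries in 1 fit, replicate blocks, Hspa1a and Hspa1b summed, and leaving out each library.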

Additional observations from a re-analysis of the deposited data

How the results depend on the processing

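Of the 10 genes, 0 were called in every comparison and alternative with these exceptions. The fit of all 12 libraries called 1 in the gastrocnemius in flight (Cryab) and 1 between the muscles after flight (Hspa8), and the replicate block by mouse called 1 between the muscles after flight (Hspa1a). Leaving out 1 library left the count at 0 in each comparison. The count of the 10 lower in flight at an unadjusted p under 0.05, an alternative chosen after seeing the data, was 4 in the gastrocnemius and 4 to 7 without 1 library. It was 7 without the ground mouse M08 and 6 without the flight mouse M12. In the quadriceps it was 3, with 3 to 4 without 1 library and 5 in the fit of all 12 libraries. With the replicate number of the labels as a block, 0 of the 10 and 0 of all tested genes were called in flight in either muscle. Same-numbered ground and flight mice share only a number, with correlations of -0.18 to 0.111 between their deviations. The mouse block changed no other call. Counts over all genes called were 24 in the gastrocnemius (1 to 133 without 1 library, 133 being without the flight mouse M11) and 3 in the quadriceps (1 to 4), and between the muscles 232 on the ground (0 to 220) and 174 after flight (12 to 280).

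Some single values changed direction. Between the muscles, rescaled TPM turned Hspb2 to 0.046 and Cryab to 0.10 on the ground and Hspb2 to 0.094 after flight, and summing Hspa1a with Hspa1b turned its quadriceps flight effect to 0.20. Leaving out 1 library gave ranges that cross 0, in log2. In flight they were -0.024 to 1.41 for Hspa1a in the gastrocnemius and, in the quadriceps, -0.14 to 0.015 for Hspb1, -0.43 to 0.78 for Hspa1a and -0.18 to 0.20 for Hspa8. Between the muscles on the ground they were -0.15 to 0.11 for Cryab, -0.027 to 0.092 for Bag3 and -0.30 to 0.048 for Hsp90aa1, and after flight -0.15 to 0.17 for Hspb2, -0.044 to 0.15 for Bag3 and -0.25 to 0.45 for Hsp90aa1. For the difference of the flight effect they were -0.067 to 0.25 for Hspb2, -0.055 to 0.090 for Hspb6, -0.22 to 0.040 for Hspb7 and -0.075 to 0.11 for Bag3. The cause was not tested. The flight values of Hspb2, Hspb6, Hspb7, Cryab and Bag3 stayed below 0 in both muscles under every alternative. For Hspb6, Hspb7 and Cryab leaving out 1 library could not change the sign, since flight and ground mice did not overlap. Without 1 library the Hspb7 log2 fold change ran from -1.05 to -0.71 in the gastrocnemius and from -0.99 to -0.65 in the quadriceps. TPM carries no depth, so low values such as those of Hspa1a have no counting interval.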
